A study of Mus musculus with 12 samples.

Results

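Immune checkpoint genes were described here in CT-26 tumors of control and swimming mice. The 10 genes were Cd274, Pdcd1lg2, Lgals9, Cd276, Ido1, Pdcd1, Ctla4, Lag3, Havcr2 and Tigit, out of 30630 genes listed for every tumor. They were found by matching the mouse Ensembl identifiers of the files to these symbols in the GENCODE M21 annotation, and all 10 were listed in all 12 tumors. RNA was sequenced after removal of ribosomal RNA, and the deposited values are FPKM, fragments divided by gene length and by the number of mapped fragments.

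CT-26 cells are colon carcinoma cells of BALB/c origin, and BALB/c mice keep a working immune system, so immune cells of the host can enter these tumors. Male BALB/c mice, bought at 4 to 6 weeks of age, received CT-26 cells in Matrigel under the skin of the right flank. They were divided at random 3 days later, with regard to tumor volume, into a control group without training and a swimming group. The swimming mice were trained 2 times a day and 6 days a week, with each session lengthened until 30 min was reached, for 3 weeks. Tumors of 6 mice in each group were sequenced, out of 10 mice per group, and each tumor is from its own mouse. Whole tumors were measured, so a lower level from fewer cells of a type and a lower level from less RNA per cell cannot be told apart.

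Checkpoints are pairs of ligands and receptors that hold back T cells. PD-L1 and PD-L2, the products of Cd274 and Pdcd1lg2, bind the receptor PD-1 (Pdcd1) on activated T cells, and interferon gamma released by such cells is a known inducer of PD-L1 in tumor and myeloid cells. CTLA-4 competes with CD28 for the costimulatory ligands CD80 and CD86, LAG-3 binds MHC class II, TIM-3 (Havcr2) binds galectin-9 (Lgals9) among other ligands, and TIGIT binds the poliovirus receptor. Ido1 encodes neither a ligand nor a receptor but an enzyme that breaks down tryptophan to kynurenine, and it is commonly grouped with checkpoints because it restrains T cells and is induced by interferon gamma.

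The genes of the PD-1 ligands lie side by side, so the bases before their start sites are shown together with those of Lgals9, in which motif matches were found near the start. The sequences are from RefSeq on GRCm38.p6 and cover the 250 bases before the annotated start, 5′ to 3′ on the strand of the gene. They lie at chr19:29367188-29367437 on the plus strand for Cd274, chr19:29410669-29410918 on the plus strand for Pdcd1lg2 and chr11:78984925-78985174 on the minus strand for Lgals9. Capitals mark motif matches.
Cd274: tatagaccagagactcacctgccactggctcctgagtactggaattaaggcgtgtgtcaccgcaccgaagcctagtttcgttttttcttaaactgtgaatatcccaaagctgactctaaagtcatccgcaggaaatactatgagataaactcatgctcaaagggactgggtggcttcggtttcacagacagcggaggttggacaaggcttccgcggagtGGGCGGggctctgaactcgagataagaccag
Pdcd1lg2: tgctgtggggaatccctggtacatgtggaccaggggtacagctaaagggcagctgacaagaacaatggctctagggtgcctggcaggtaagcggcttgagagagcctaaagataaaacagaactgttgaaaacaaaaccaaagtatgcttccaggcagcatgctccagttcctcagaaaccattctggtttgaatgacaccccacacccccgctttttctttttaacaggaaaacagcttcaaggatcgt
Lgals9: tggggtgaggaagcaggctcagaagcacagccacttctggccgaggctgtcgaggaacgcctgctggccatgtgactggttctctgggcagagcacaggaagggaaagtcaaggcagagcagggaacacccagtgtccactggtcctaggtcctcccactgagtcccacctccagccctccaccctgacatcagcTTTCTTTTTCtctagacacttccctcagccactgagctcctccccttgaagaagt

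RefSeq start regions of 300 bases, 250 before and 50 after the start, were matched for 8 of the 10 genes, and Lag3 and Ido1 were not matched. Both strands were searched for 5 motifs. The letters TTCNNNGAA, the GAS element of interferon gamma responses, occurred in 0 of the 8 regions and in 8.3% of all 32851 start regions of the table. The pair of interferon response repeats, GAAA followed by any 2 bases and GAAA again or the same in reverse complement, occurred in 1 of the 8, with 2 matches in Lgals9, and in 3.44% of all regions. The capitals in Lgals9 are the match that begins 55 bases before the start, and the other begins 15 bases after it. The GC box GGGCGG or CCGCCC, bound by Sp1, occurred in 3 of the 8 (Cd274, Pdcd1 and Cd276) and in 35.7% of all regions, and the capitals in Cd274 are its match 31 bases before the start. The AP-1 site TGANTCA occurred in 1 of the 8 (Havcr2, 200 bases before the start) and in 7.81% of all regions. The kappa B site, GGGA followed by any base and TTTCC or the same in reverse complement, occurred in 0 of the 8 and in 0.411% of all regions. The AP-1 and GC box matches overlapped no match of another motif. The regions of the PD-1 ligands differed in base composition, with 52.7% G and C and 15 CpG for Cd274 against 46.0% and 3 CpG for Pdcd1lg2. A match is only a run of letters in this window, and no binding was measured.

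All 10 genes passed the filter of at least 0.1 FPKM in at least 6 tumors, as did 19018 genes in all. FPKM holds no read numbers, so counting error is unknown. Relative depth was estimated from the most frequent FPKM ratio to control 1 among weakly expressed genes, not measured. The estimate was lowest in control 2, at 0.694 of control 1. Levels can be compared between genes on the FPKM scale, which is per length. Lgals9 was the highest, with a mean of 30.7 FPKM over the 12 tumors, followed by Tigit at 12.6, Cd274 at 8.73 and Cd276 at 6.0 FPKM. Havcr2 at 3.44 and Pdcd1 at 2.70 FPKM stood in the middle of this order. Lag3 at 1.57, Ido1 at 1.44, Pdcd1lg2 at 1.05 and Ctla4 at 0.484 FPKM were the lowest. Lgals9 exceeded Tigit in 12 of 12 tumors, with ranges that did not overlap. The ranges of all other neighbors in this order overlapped, from Tigit and Cd274 (Tigit higher in 10 of 12 tumors) to Pdcd1lg2 and Ctla4 (Pdcd1lg2 higher in 9 of 12 tumors).

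**Figure D1:**
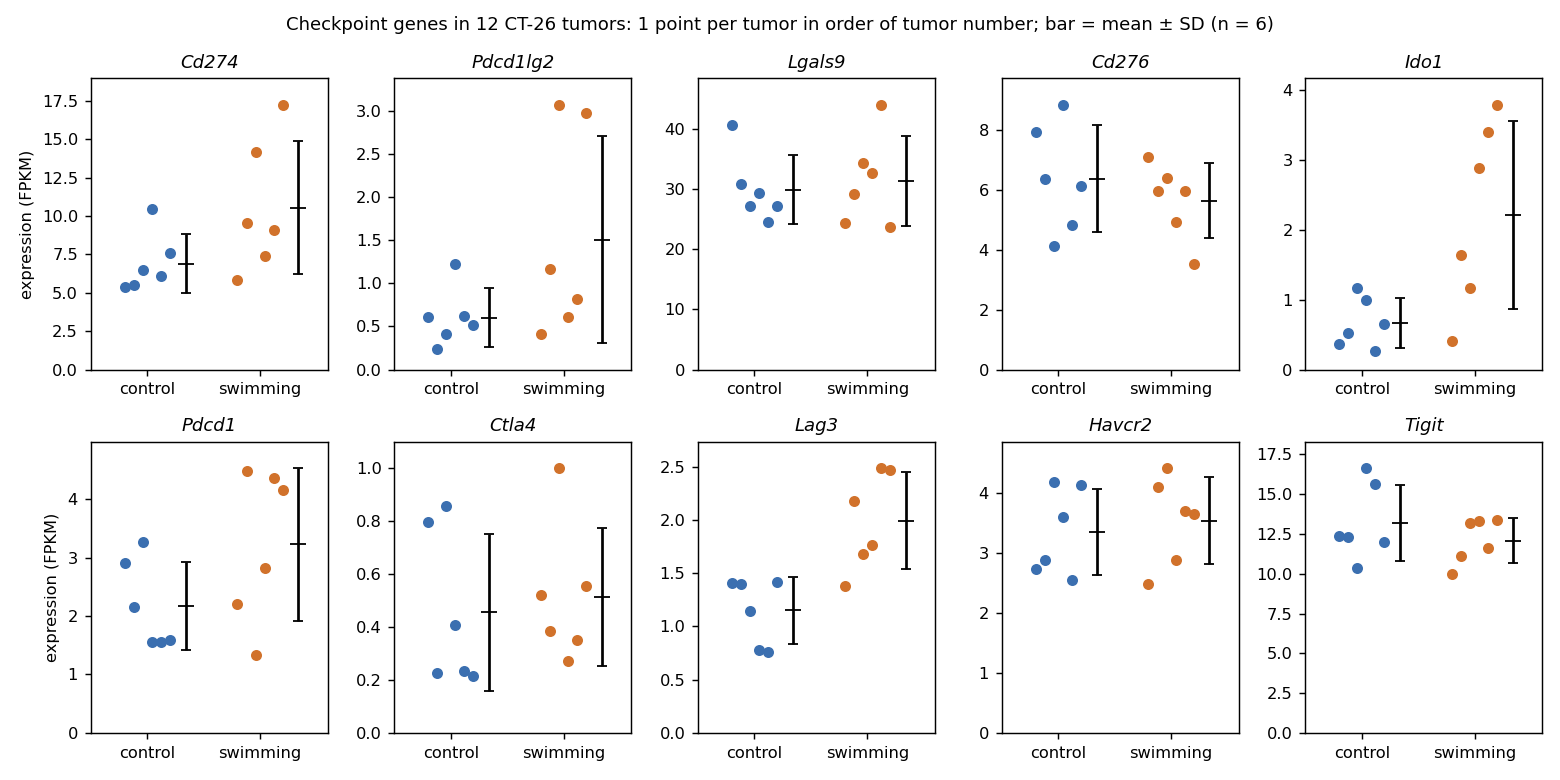
Expression of the 10 checkpoint genes in FPKM (y axis, separate scale per gene, from 0) in 6 control and 6 swimming tumors, 1 point per tumor in order of tumor number, with the mean ± SD of each group as a bar. The largest separation is that of Lag3, where 5 of 6 swimming tumors lie above every control tumor, whereas the points of Lgals9, Havcr2 and Ctla4 share most of their range.

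The groups were compared with limma on log2(FPKM + 1), a scale that understates the change of weakly expressed genes. No gene passed an adjusted p of 0.05 in limma, 0 of 19018 genes with a smallest adjusted p of 0.204, and 1 gene did so with array weights. Differences are therefore given as values with unadjusted p and with two-sided exact permutation tests, whose smallest possible p is 0.00216 here. At an unadjusted p below 0.05, 3 of the 10 checkpoint genes were higher in swimming tumors (Lag3, Ido1 and Cd274), beside 3.11% of all genes tested. On the same rule 0 of 10 were lower, beside 2.46% of all genes, and 1058 genes (5.56%) passed it in either direction. The fitted difference was positive for 8 of the 10 genes and for 51.7% of all genes. The median difference was 0.22 on the log2 scale over the 10 genes and 0.0039 over all genes. The 10 genes were chosen with earlier results of these data known, so these counts and this median are no independent test. On the log2(FPKM + 1) scale no checkpoint gene had a fold change over 2 with an unadjusted p below 0.05, beside 0.105% of all genes. In mean FPKM, Ido1 differed 3.33-fold. In 0 of 10 the groups did not overlap, beside 0.147% of all genes.

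**Figure D2:**
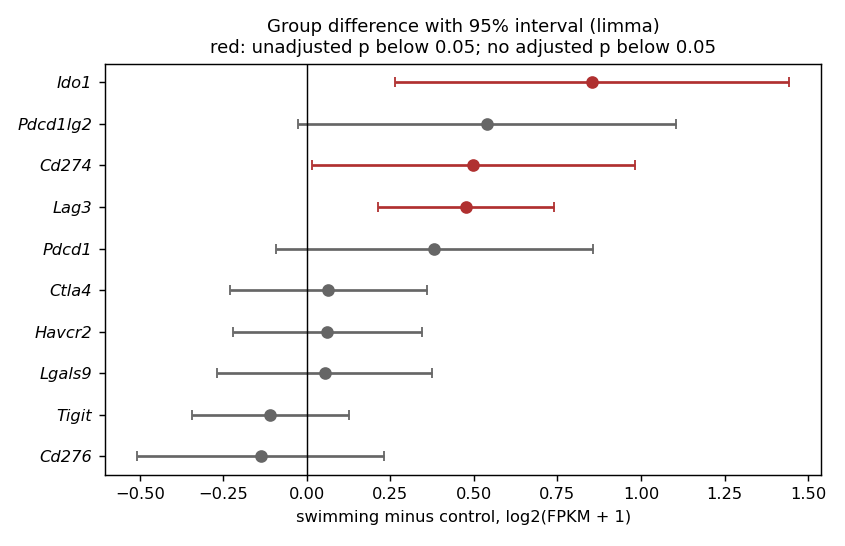
Group difference of the 10 checkpoint genes, swimming minus control, on the log2(FPKM + 1) scale (x axis), with the 95% interval of limma's fit as a bar and 1 row per gene. Ido1 has the largest difference (0.85) and one of the widest intervals, Lag3 a smaller difference (0.48) with a narrower interval, and the intervals of 7 genes include 0.

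Among the ligands, Cd274 (ENSMUSG00000016496, chr19:29367455-29388095 on GRCm38, plus strand) ranged from 5.36 to 10.4 FPKM in control tumors, with a median of 6.27, and from 5.84 to 17.2 FPKM in swimming tumors, with a median of 9.32. Swimming 3 (14.2 FPKM) and swimming 6 (17.2 FPKM) lay above all controls, and the other 4 lay within the control range. Means were 6.90 ± 1.91 and 10.6 ± 4.31 FPKM (SD, n = 6 each), a 1.53-fold difference. On the log2 scale this was 0.50 (SE 0.22, 95% interval 0.01 to 0.98), where limma gave 0.0444 as the unadjusted p and 0.889 as the adjusted p. The exact permutation test gave a p of 0.0844. The unadjusted p of Cd274 was 0.0525 without the filter on low values, and it stayed below 0.05 in 3 of the 12 fits that left out a tumor, those without control 4, swimming 1 or swimming 4. In the 9 others it was at most 0.104, and the difference ranged from 0.35 without swimming 6 to 0.63 without swimming 1. An annotated antisense gene, AC119228.1 on the minus strand, overlaps an exon of Cd274, and counting is not stated to use strand.

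Pdcd1lg2 (ENSMUSG00000016498, chr19:29410919-29471161, plus strand) begins 22823 bases after the end of Cd274. It ranged from 0.234 to 1.23 FPKM in control tumors, with a median of 0.560, and from 0.412 to 3.07 FPKM in swimming tumors, with a median of 0.990. The highest values were those of swimming 3 (3.07 FPKM) and swimming 6 (2.98 FPKM), the same tumors as for Cd274, and the other 4 lay within the control range. Means were 0.602 ± 0.338 and 1.51 ± 1.20 FPKM, and the difference on the log2 scale was 0.54 (SE 0.26, 95% interval -0.03 to 1.11). The unadjusted p was 0.0600, the adjusted p 0.889 and the exact permutation p 0.108. It passed 0.05 unadjusted with array weights (p of 0.0457) and without control 4, swimming 1, swimming 4 or swimming 5.

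The PD-1 ligand genes were high and low in the same tumors. Over the 12 tumors Pearson's r was 0.944 (permutation p of 2e-05, adjusted p of 0.0009 over 45 pairs of the 10 genes) and Spearman's rho was 0.853 (permutation p of 0.00084, adjusted p of 0.0378). The r was 0.853 (permutation p of 0.0013) when swimming 3 and swimming 6, the tumors farthest from the median of Cd274, were left out. Within the groups r was 0.792 in control and 0.969 in swimming tumors. This was the only one of the 45 pairs with an adjusted p below 0.05. The ratio of Cd274 to Pdcd1lg2 in FPKM ranged from 4.62 in swimming 3 to 23.5 in control 2, the tumor of lowest estimated relative depth, with a median of 10.5. On the log2 scale the difference between these genes was 2.30 ± 0.20 in control and 2.25 ± 0.20 in swimming tumors (difference -0.04, exact permutation p of 0.699). Pdcd1lg2 lay mostly below 1 FPKM, where a pseudocount of 1 shrinks differences, and with a pseudocount of 0.1 the difference was -0.43 (exact permutation p of 0.175).

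**Figure D3:**
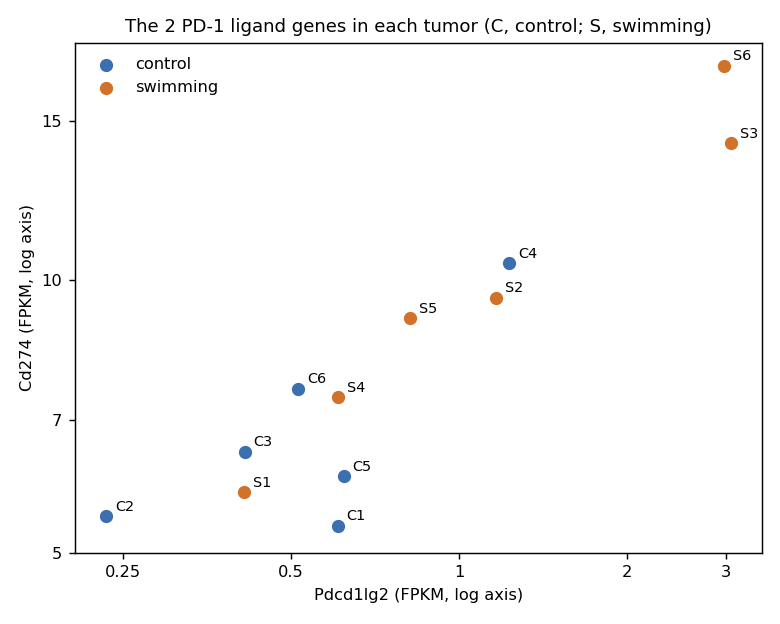
Cd274 (y axis) against Pdcd1lg2 (x axis) in FPKM, both on log axes, 1 labelled point per tumor (C, control; S, swimming). The points run along a diagonal (r of 0.944 on log2(FPKM + 1)), with swimming 3 and swimming 6 at its upper end.

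Lgals9, which encodes galectin-9 (ENSMUSG00000001123, chr11:78962974-78984946, minus strand), ranged from 24.5 to 40.7 FPKM in control tumors, with a median of 28.3, and from 23.8 to 44.0 FPKM in swimming tumors, with a median of 30.9. The groups overlapped over most of the range. The log2 difference was 0.05 (SE 0.15, 95% interval -0.27 to 0.37), with an exact permutation p of 0.749. Cd276, which encodes B7-H3, a B7 family protein found on many tumors (ENSMUSG00000035914, chr9:58524298-58555437, minus strand), was the only ligand with a negative difference. It ranged from 4.12 to 8.82 FPKM in control tumors, with a median of 6.23, and from 3.53 to 7.07 FPKM in swimming tumors, with a median of 5.95. The log2 difference was -0.14 (SE 0.17, 95% interval -0.51 to 0.23), with an exact permutation p of 0.472. Exons of Cd276 overlap Gm10657 on the plus strand.

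Ido1 (ENSMUSG00000031551, chr8:24584136-24597009, minus strand) had the largest difference of the 10 genes. It ranged from 0.272 to 1.17 FPKM in control tumors, with a median of 0.590, and from 0.403 to 3.79 FPKM in swimming tumors, with a median of 2.26. Swimming 2, 4, 5 and 6 (1.64 to 3.79 FPKM) lay above all controls, swimming 3 was at the upper end of the control range and swimming 1 at its lower end. Means were 0.664 ± 0.354 and 2.21 ± 1.35 FPKM, a 3.33-fold difference, or 0.85 on the log2 scale (SE 0.27, 95% interval 0.26 to 1.44). The unadjusted p was 0.00810, the adjusted p 0.889 and the exact permutation p 0.0238. The unadjusted p of Ido1 was below 0.05 in 12 of 12 fits that left out a tumor and in 9 of 9 other settings. Without swimming 1 the difference was 1.07 (unadjusted p of 0.000337, adjusted p of 0.164).

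Among the receptors, Lag3 (ENSMUSG00000030124, chr6:124904361-124911705, minus strand) had the smallest p. It ranged from 0.755 to 1.42 FPKM in control tumors, with a median of 1.27, and from 1.38 to 2.48 FPKM in swimming tumors, with a median of 1.97. All 6 swimming tumors lay above the control median and 5 lay above all controls, and only swimming 1 (1.38 FPKM) overlapped with the control group. Means were 1.15 ± 0.315 and 1.99 ± 0.453 FPKM, a 1.73-fold difference. The log2 difference was 0.48 (SE 0.12, 95% interval 0.21 to 0.74), with an unadjusted p of 0.00181 that ranked 24 among all genes tested, an adjusted p of 0.889 and an exact permutation p of 0.00866. The unadjusted p of Lag3 stayed below 0.05 in 12 of 12 fits that left out a tumor and in 9 of 9 other settings.

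Pdcd1 (ENSMUSG00000026285, chr1:94038305-94052553, minus strand), the receptor of both PD-1 ligands, ranged from 1.55 to 3.27 FPKM in control tumors, with a median of 1.87, and from 1.33 to 4.48 FPKM in swimming tumors, with a median of 3.50. Swimming 2, 5 and 6 lay above all controls, whereas swimming 3, high in both ligands, had the lowest Pdcd1 of the 12 tumors. The log2 difference was 0.38 (SE 0.22, 95% interval -0.09 to 0.85), where the unadjusted p was 0.106 and the exact permutation p 0.147. Without swimming 3 it was 0.54 (unadjusted p of 0.0131, adjusted p of 0.990).

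The other receptors did not differ beyond the spread between tumors, though the intervals include modest differences in both directions. Ctla4 (ENSMUSG00000026011, chr1:60887000-60915832, plus strand) was the lowest gene of the set, from 0.216 to 0.855 FPKM in control tumors (median 0.319) and from 0.270 to 0.999 FPKM in swimming tumors (median 0.453). Its log2 difference was 0.06 (95% interval -0.23 to 0.36, exact permutation p of 0.680). Havcr2 (ENSMUSG00000020399, chr11:46454935-46481255, plus strand) ranged from 2.55 to 4.18 FPKM in control tumors (median 3.24) and from 2.48 to 4.40 FPKM in swimming tumors (median 3.67), a log2 difference of 0.06 (95% interval -0.22 to 0.34, exact permutation p of 0.675). The groups of both genes overlapped over most of their range. Tigit (ENSMUSG00000071552, chr16:43648867-43664146, minus strand) ranged from 10.3 to 16.6 FPKM in control tumors (median 12.3) and from 9.96 to 13.4 FPKM in swimming tumors (median 12.4). Control 4 and control 5 were above all swimming tumors, and the log2 difference was -0.11 (95% interval -0.34 to 0.13, exact permutation p of 0.379).

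The genes also differed in how much they varied between tumors of the same group. Ido1, Pdcd1lg2, Cd274 and Pdcd1 had a within-group SD on the log2 scale above that of 97.4%, 97.1%, 95.5% and 95.1% of all genes tested, whereas Tigit exceeded 70.5%. Swimming 1 had the lowest value of its group for 6 of the 10 genes (Cd274, Pdcd1lg2, Lag3, Havcr2, Tigit and Ido1). Control 5 had the lowest value of its group for 5 of the 10 genes (Pdcd1, Lag3, Havcr2, Ido1 and Lgals9).

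T cell markers are given beside the receptors, of which only Lag3 passed the unadjusted threshold. All 16 T cell markers had a positive difference, beside 51.7% of all genes. An unadjusted p below 0.05 was found for 11 of 16, beside 3.11% of all genes that were higher, and an adjusted p below 0.05 for 0. Their median log2 difference was 0.42. This list and those below were written with earlier results of these data known, so their counts and scores are no independent test. The summed level of the 16 ranged from 8.98 to 30.4 FPKM in control tumors and from 19.5 to 49.5 FPKM in swimming tumors, and no marker was at 0 in all tumors. The count was 7 of 16 without control 5 or without swimming 5 and 6 of 16 when the replicate number was a block. Single list genes are given with their log2 difference and then their unadjusted p. Cd5 (0.41, 0.00278), Cd3d (0.48, 0.00630), Cd3g (0.43, 0.00794) and Cd2 (0.54, 0.0101) had the smallest p. Cd5 was weak, from 0.131 to 0.583 FPKM in control and from 0.251 to 0.900 FPKM in swimming tumors, so it dropped out with a filter of 1 FPKM. Cd8a, the coreceptor of cytotoxic T cells, was at 1.47 ± 0.710 FPKM in control and 2.80 ± 1.19 FPKM in swimming tumors. Cd3e was at 0.635, Cd4 at 0.443 and Foxp3, the factor of regulatory T cells, at 0.219 FPKM over the 12 tumors. The part of T cell content in the receptor differences was not tested beyond the values that follow.

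Among the receptors, Lag3 and Pdcd1 had relations with the T cell markers across tumors that passed the adjustment, and that of Pdcd1 did not hold in every fit. A score was taken as the mean of the log2 values of each list, each gene centred on its own mean, and the 10 genes were set against the scores of 3 lists, 30 relations in all. Lag3 and the T cell score had an r of 0.910 (permutation p of 9e-05, adjusted p of 0.00135) and a rho of 0.874 (permutation p of 0.00044, adjusted p of 0.0066). The r was 0.843 (permutation p of 0.0016) when control 5 and swimming 5 were left out, and within the groups it was 0.759 in control and 0.917 in swimming tumors. For Pdcd1, r was 0.762 (permutation p of 0.0048, adjusted p of 0.0312) and rho 0.790 (permutation p of 0.0035, adjusted p of 0.021). Without the same tumors the r of Pdcd1 was 0.667 (permutation p of 0.039), and it was 0.841 within control and 0.627 within swimming tumors. The adjusted p of Pdcd1 was above 0.05 with a pseudocount of 0.1 (0.0555) and in 6 of the 12 repeats that left out a tumor, those without control 2, 4, 5 or 6 or swimming 5 or 6, where it reached 0.106. That of Lag3 was at most 0.0066 in all 12.

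Tigit, Havcr2 and Ctla4 gave no relation that passed the adjustment, with r of -0.37, 0.28 and 0.29 with the T cell score and permutation p of 0.24, 0.38 and 0.35. The mean of Tigit was also above that of each of the 16 T cell markers on the FPKM scale, the highest of which was Trbc1 at 5.38 FPKM. The ratio of Tigit to Cd3e in FPKM ran from 8.01 in swimming 5 to 65.1 in control 4, with a median of 23.1. This ratio ran from 2.78 to 6.63 for Pdcd1, 1.35 to 5.92 for Lag3, 2.55 to 17.2 for Havcr2 and 0.242 to 2.09 for Ctla4. Its highest value over its lowest was 8.62 for Ctla4, 8.13 for Tigit, 6.73 for Havcr2, 4.40 for Lag3 and 2.38 for Pdcd1.

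Relative to the mean of the 16 T cell markers, Lag3 was 0.15 ± 0.17 in control and 0.22 ± 0.10 in swimming tumors on the log2 scale, a difference of 0.06 (exact permutation p of 0.476). For Pdcd1 the values were 0.70 ± 0.18 and 0.66 ± 0.39, a difference of -0.04 (exact permutation p of 0.894). With a pseudocount of 0.1 these differences were -0.011 (exact permutation p of 0.924) and -0.27 (exact permutation p of 0.374). Tigit was lower relative to T cell markers in swimming tumors, at 2.35 ± 0.23 against 2.88 ± 0.46, a difference of -0.53 with an exact permutation p of 0.0281, which became 0.126 after adjustment over the 5 receptors. The level of Tigit was below the control median in all 6 swimming tumors on this measure. The exact permutation p was 0.119 with Cd3e alone as the reference. With the replicate block, an exact sign-flip test of same-numbered tumors gave a p of 0.125, and its smallest possible p is 0.03125. Havcr2 (difference -0.35, exact permutation p of 0.0758) and Ctla4 (difference -0.35, exact permutation p of 0.0736) both had an adjusted p of 0.126. None of the 5 receptors passed the adjustment. The T cell marker mean that is subtracted was itself higher in swimming tumors, with a mean score of -0.208 in control and 0.208 in swimming tumors. The receptors' own log2 differences were -0.11 for Tigit and 0.06 for both Havcr2 and Ctla4, so most of these differences come from the reference. A change per T cell was not tested. With a pseudocount of 0.1 the differences were larger, at -0.88 for Tigit (exact permutation p of 0.0173), -0.69 for Havcr2 (exact permutation p of 0.0433) and -0.55 for Ctla4 (exact permutation p of 0.186), before adjustment.

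**Figure D4:**
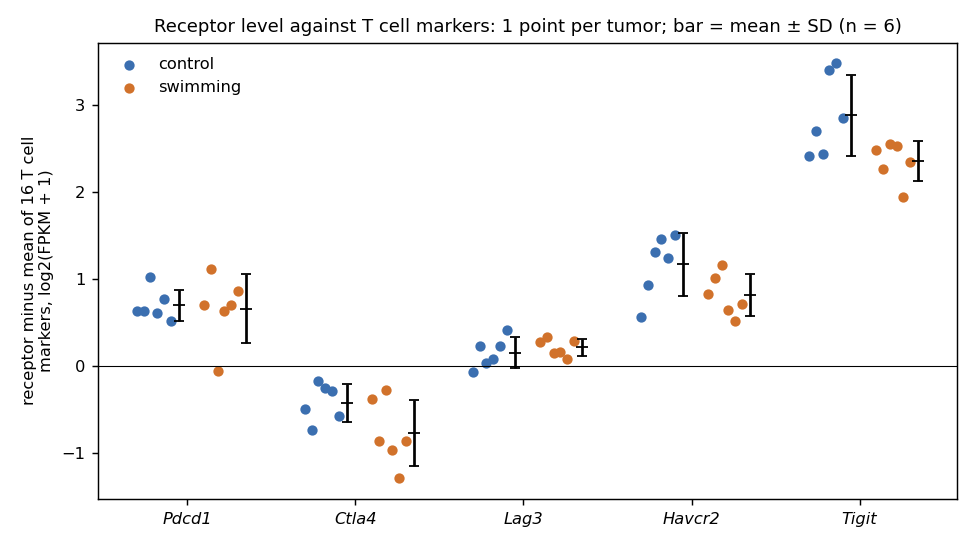
Level of 5 receptors minus the mean of 16 T cell markers in the same tumor on the log2(FPKM + 1) scale (y axis), 1 point per tumor, with the mean ± SD of each group as a bar. On this scale the group means of Lag3 and Pdcd1 differ by 0.06 and -0.04, and the 6 swimming tumors lie lower on average for Tigit, Havcr2 and Ctla4. The subtracted mean of the markers was itself higher in swimming tumors on average.

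Genes induced by interferon gamma are given beside Ido1 and the PD-1 ligands, of which Ido1 and Cd274 passed the unadjusted threshold and Pdcd1lg2 did not. Of 24 such genes, all 24 had a positive difference, beside 51.7% of all genes. An unadjusted p below 0.05 was found for 21, beside 3.11% of all genes that were higher, and an adjusted p below 0.05 for 0. The median log2 difference was 0.78. The list was written with earlier results of these data known, so this count is no independent test. The guanylate-binding protein genes Gbp7 (18.6 ± 4.46 to 34.7 ± 12.1 FPKM, unadjusted p of 0.00489) and Gbp3 (17.4 ± 3.61 to 36.9 ± 14.8 FPKM, 0.00640) had the smallest p, followed by the immunoproteasome subunit Psmb8 (38.0 ± 7.44 to 60.6 ± 17.9 FPKM, 0.00779) and by Gbp8 (2.45 ± 0.728 to 4.30 ± 1.33 FPKM, 0.00846). The Gbp genes are similar in sequence, and how reads were divided between them is uncertain. The count was 13 of 24 without swimming 5. Of 16 genes of interferon gamma signaling, 4 were higher at an unadjusted p below 0.05 and 0 lower, beside 3.11% and 2.46% of all genes. Among them were Ifng (0.367 ± 0.173 to 1.05 ± 0.583 FPKM, unadjusted p of 0.00629), Ciita (0.700 ± 0.339 to 1.68 ± 0.904 FPKM, 0.0181) and Stat2 (5.98 ± 0.835 to 8.52 ± 2.50 FPKM, 0.0308). When a tumor was left out, 3 to 10 of the 16 were higher (10 without swimming 1) and 0 to 1 lower.

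Ido1 and Cd274 followed the score of the 24 induced genes, a list that holds none of the 10 but was written with earlier results known. For Ido1, r was 0.903 (permutation p of 6e-05, adjusted p of 0.00135) and rho 0.930 (permutation p of 4e-05, adjusted p of 0.0012). It was 0.856 without control 5 and swimming 5 (permutation p of 0.0015), 0.873 within control and 0.827 within swimming tumors. For Cd274, r was 0.791 (permutation p of 0.002, adjusted p of 0.02) and rho 0.790 (permutation p of 0.0033, adjusted p of 0.021). It was 0.869 without the same tumors (permutation p of 0.0013), 0.716 within control and 0.687 within swimming tumors. Pdcd1lg2 came close, with an r of 0.673 (permutation p of 0.013, adjusted p of 0.0557). Swimming 1, the tumor with the lowest Ido1 and Cd274 of its group, also had the lowest score of its group (-0.77, the group median being 0.54).

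Relations of Lag3 with the interferon gamma score and of Ido1 with the T cell score were uneven within the groups. Lag3 had an r of 0.721 (permutation p of 0.0079, adjusted p of 0.0395) and a rho of 0.790 (permutation p of 0.0029, adjusted p of 0.021) with the interferon gamma score over the 12 tumors, but 0.0035 within control and 0.756 within swimming tumors. It was 0.528 without control 5 and swimming 5 (permutation p of 0.12). These tumors lie farthest from the median of the score, so leaving them out also narrows its range. Its adjusted p stayed below 0.05 only without control 4 or swimming 1 when tumors were left out in turn, and reached 0.156. Ido1 and the T cell score had an r of 0.749 (permutation p of 0.0052, adjusted p of 0.0312) and a rho of 0.713 (permutation p of 0.012, adjusted p of 0.06), with 0.037 within control and 0.869 within swimming tumors. Without control 5 and swimming 5 it was 0.596 (permutation p of 0.07). Its adjusted p stayed below 0.05 only without control 1, control 4, swimming 1 or swimming 4 when tumors were left out in turn, and reached 0.122. Whether the groups differ in these relations was not tested. Of the 30 relations, 25 were positive, 6 had an adjusted p below 0.05 for r and 5 for both r and rho.

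With macrophage markers no checkpoint gene had a relation that passed the adjustment. The highest r was 0.58 for Lgals9, followed by 0.50 for Cd276 and 0.42 for Tigit. The macrophage markers themselves overlapped between the groups, with sums from 1532 to 2159 FPKM in control and from 1605 to 2103 FPKM in swimming tumors. Adgre1, which encodes F4/80, was at 20.4 FPKM and Cd68 at 54.3 FPKM over the 12 tumors.

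**Figure D5:**
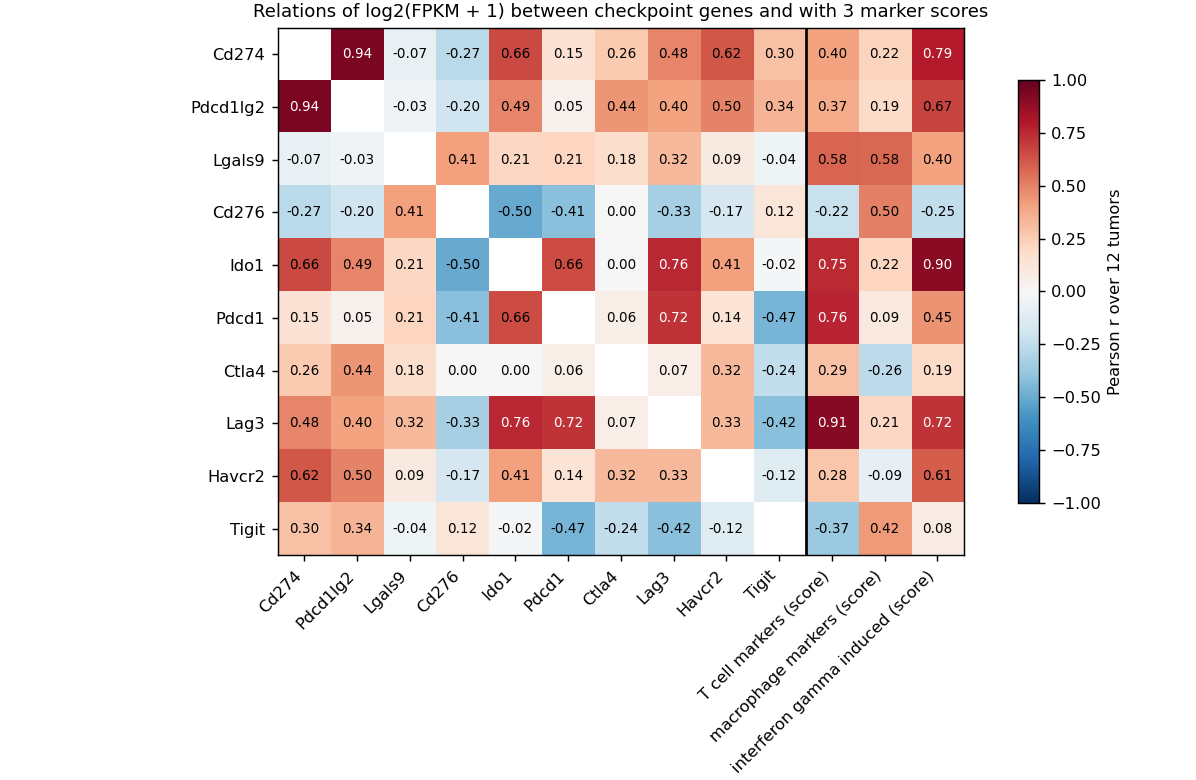
Pearson's r over the 12 tumors between the 10 checkpoint genes (rows and left columns) and between each of them and the T cell, macrophage and interferon gamma induced scores (3 right columns), with red for positive and blue for negative values. The strongest cells are those of Cd274 with Pdcd1lg2 (0.94), Lag3 with the T cell score (0.91) and Ido1 with the interferon gamma score (0.90), and the row of Tigit has r between -0.47 and 0.42.

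Other partners of these checkpoints came from a list. Of 32 further checkpoint ligands, receptors and regulators, 28 could be tested, 4 were higher and 0 lower at an unadjusted p below 0.05, beside 3.11% and 2.46% of all genes, and their median log2 difference was 0.06. None of these, nor of the lists that follow, had an adjusted p below 0.05. Tnfrsf14, the HVEM ligand of BTLA, was at 5.60 ± 1.12 in control and 7.76 ± 1.48 FPKM in swimming tumors (log2 difference 0.41, unadjusted p of 0.00973). The others were Klrc1, an inhibitory receptor of cytotoxic cells (0.39, 0.0153), Icos, a costimulatory receptor (0.25, 0.0197), and Cd226, which competes with TIGIT for the same ligand (0.28, 0.0431). Of 10 costimulatory TNF family genes tested, Cd40 (0.30, 0.00939) and Cd27 (0.33, 0.0217) were higher and 0 were lower at this threshold. Counts of such small sets depend on the settings, and both Cd40 and Cd27 dropped out with a filter of 1 FPKM. So did Icos and Cd226, whose highest values were 0.963 and 0.929 FPKM.

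Around Ido1, 12 of 18 genes of tryptophan breakdown and kynurenine response were tested. Of these 2 were higher and 1 lower at an unadjusted p below 0.05, beside 3.11% and 2.46% of all genes, with 0 to 2 higher when a tumor was left out. Ido2, the neighbor and relative of Ido1, was at 2.16 ± 0.843 in control and 3.21 ± 0.871 FPKM in swimming tumors (log2 difference 0.42, unadjusted p of 0.0296). The kynurenine receptor gene Ahr had a difference of 0.21 (0.0380). Slc7a5, a transporter of tryptophan and kynurenine, was lower, at 85.1 ± 9.69 in control and 69.8 ± 11.0 FPKM in swimming tumors (-0.29, unadjusted p of 0.0132). Of 7 further galectin and TIM family genes tested, 0 passed in either direction, and the smallest p were those of Lgals3bp (0.24, 0.224) and Timd4 (0.13, 0.448).

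Lists of other cells and states were counted in the same way, at an unadjusted p below 0.05 and beside the same 3.11% of all genes that were higher. Of 15 factors of T cell dysfunction only Cxcr6 was higher (0.58, 0.0289), with 0 to 2 when a tumor was left out. Of 12 cytotoxic and NK cell markers 3 were higher, Gzmk (0.28, 0.00468), Klrk1 (0.38, 0.0159) and Ccl5 (0.60, 0.0248), and of 12 dendritic cell markers 2 were higher, Xcr1 (0.31, 0.00373) and Flt3 (0.17, 0.0476). Gzmk, Xcr1 and Flt3 were weak, with highest values of 0.640, 0.996 and 0.489 FPKM, so they dropped out with a filter of 1 FPKM. When a tumor was left out, 2 to 6 of the cytotoxic and NK markers were higher (6 without swimming 1) and 1 to 6 of the dendritic cell markers (6 without control 1, and 1 without any of control 2 to 6 or swimming 3 to 6). Of 16 macrophage markers only Aif1 was higher (0.37, 0.0189). The 8 regulatory T cell, 3 B cell, 8 endothelial, 10 fibroblast, 11 skeletal muscle and 7 colon epithelial markers tested gave 0 in either direction. Of the regulatory T cell markers 1 was higher without swimming 3 and 2 without swimming 6. Of the colon epithelial markers Epcam, Vil1 and Cdx2 did not pass the filter on low values, while Krt20 was at 154 ± 32.2 in control and 125 ± 19.1 FPKM in swimming tumors.

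Genes with the most similar pattern across the 12 tumors were searched among 12780 genes with a mean of at least 1 FPKM, as a description by Pearson's r of the log2 values. For Cd274 these were Acod1 (0.920), which encodes the itaconate-forming enzyme of activated macrophages, Calhm6 (0.909) and Hk3 (0.900). For Ido1 they were Gm12185 (0.938), Gna13 (0.931) and Gm4951 (0.925). For Pdcd1 they were Gbgt1 (0.889), Cd8a (0.888) and the pseudogene Gm29284 (0.883), so a T cell marker stood among the nearest genes of Pdcd1. For Lag3 they were Wasf2 (0.931), Bbs10 (0.918) and Mrpl37 (0.905), and for Lgals9 Il3ra (0.959), Sned1 (0.954) and Man1c1 (0.954).

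For Pdcd1lg2 the nearest were Gm28043 (0.897), Plekhf2 (0.891) and Pfkp (0.871), and the first of these had an r of only 0.06 within control tumors. For Ctla4 they were Mcc (0.929), the pseudogene Gm3222 (0.901) and Mthfd1l (0.889), and for Havcr2 the pseudogene Zfp422-ps (0.884), Pds5a (0.867) and Ptp4a1 (0.832). For Tigit they were Hbs1l (0.903), the long noncoding RNA 3110039M20Rik (0.883) and Chchd4 (0.882), and for Cd276 Nckap5l (0.897), Carm1 (0.873) and Ap1b1 (0.871). None of the genes nearest to Lag3, Tigit, Ctla4 or Havcr2 was on the T cell marker list. Markers with a mean below 1 FPKM were outside this search, and the median of the 16 marker means was 0.953 FPKM. The absence of a marker therefore does not set these receptors apart from T cells.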

How the data were processed

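The authors deposited FPKM values per gene for 12 tumors. Per the methods and the submitters' processing notes, ribosomal RNA was depleted, reads were aligned with HISAT2 2.0.5, expression was quantified with StringTie 1.3.3 and limma was used. The methods name hg38 and the notes name hg38 and GRCm38, while the deposited files list mouse Ensembl identifiers, so symbols and coordinates were taken from GENCODE M21 (GRCm38) by identifier only, for 30542 of 30630 genes. FPKM is already divided by gene length and depth. Absolute depth is unknown. Depth relative to control 1, estimated from the most frequent FPKM ratio among weakly expressed genes, was 0.694 in control 2 and 0.871 to 1 in the others. Sums of FPKM were 380139 to 407109, and 22293 to 23974 genes were above 0.

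Groups and tumor numbers are from the labels, and no tumor was left out of the main comparison. Values were compared as log2(FPKM + 1) with lmFit and eBayes with trend in limma 3.58.1 (R 4.3.3) on genes that reached 0.1 FPKM in 6 tumors or more, with Benjamini-Hochberg adjustment over all genes. A fold change above 2 with an unadjusted p below 0.05 is a reading of the cut-off in the methods. Exact permutation tests covered all divisions into 6 and 6 tumors, and correlations used 100000 permutations, rounded to 2 digits. With the replicate block, differences relative to T cell markers were tested by exact sign flips of same-numbered tumors. Python 3.11.15, pandas 2.3.3, numpy 2.4.6, scipy 1.17.1 and matplotlib 3.10.9 were used, and the comparison was tested on simulated data.

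The 10 genes and all lists were chosen with earlier results of these data known. Named genes are the 10, up to 4 genes of each list at an unadjusted p below 0.05 (otherwise the 2 with the smallest p, given here only for the galectin and TIM list), the 3 genes of most similar pattern, and Cd3e, Cd8a, Cd4, Foxp3, Adgre1, Cd68 and Ifng. Trbc1, Krt20 and the colon markers below the filter were named after their values were seen. Alternatives were pseudocounts of 0.1 and 0.01, array weights, no filter on low values or one at 1 FPKM, eBayes with no trend, values rescaled by trimmed mean or by quantiles, the replicate number as a block, Cd3e alone as the T cell reference, and leaving out each tumor in turn. Protein sequences were not used here. 1 gene of the interferon gamma signaling list is not reported here by name.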

Additional observations from a re-analysis of the deposited data

Results flagged for a closer look

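In swimming 5 the score of macrophage markers was 0.357 on the log2 scale, far above the next tumor of its group (0.0122) when set against the range of the group, whose lowest value was -0.124. Swimming 5 also had 23974 genes above 0, against 23385 in the next tumor of its group and 23066 in the lowest. Of 42 sets of values examined in this way, each a quantity within the control or the swimming group, 2 were set apart, and chance alone gives about 2.1. These sets are not independent of each other. Swimming 5 had the highest Lag3 and Lgals9 of its group, and without it the log2 difference was 0.43 for Lag3 and -0.048 for Lgals9.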

How the results depend on the processing

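The direction of Lag3, Ido1, Cd274, Pdcd1lg2 and Pdcd1 held under every alternative in which they were fitted. With a filter of 1 FPKM, Pdcd1lg2 and Ctla4 were not tested, and 391 genes in all were higher at an unadjusted p below 0.05, against 591. Ido1 passed a fold change of 2 with a pseudocount of 0.1 or 0.01, 1 of 10 genes in each, and 138 and 229 of all genes did so, against 20. With array weights 1 gene of all had an adjusted p below 0.05, and 2 list genes were lower. With a pseudocount of 0.1 the difference of Lag3 relative to T cell markers was -0.011, that of Havcr2 was -0.69 (exact permutation p of 0.0433), those of Pdcd1, Tigit and Ctla4 were -0.27, -0.88 and -0.55, that between Cd274 and Pdcd1lg2 was -0.43, and 3 relations with marker scores had an adjusted p below 0.05. Against Cd3e alone the difference was 0.12 for Pdcd1 and -0.37 for Tigit.

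With 1 tumor left out at a time, 2 to 4 of the 10 genes were higher at an unadjusted p below 0.05 and 0 to 1 passed a fold change of 2 (Ido1 without swimming 1). Of all genes 403 to 861 were higher, 388 to 655 lower, 10 to 41 passed a fold change of 2 and 0 to 3 had an adjusted p below 0.05. Of the list genes 34 to 67 were higher and 1 to 4 lower. The difference of Ctla4 was -0.019 to 0.14, negative without swimming 3, and that of Lgals9 was -0.048 to 0.14, negative without swimming 5. Relative to T cell markers the differences were -0.13 to 0.11 for Pdcd1 (0.030 without control 3, 0.11 without swimming 3), -0.45 to -0.25 for Ctla4, 0.02 to 0.11 for Lag3, -0.47 to -0.29 for Havcr2 and -0.62 to -0.41 for Tigit. The exact permutation p for Tigit was 0.0606, 0.0714 and 0.0563 without swimming 2, 5 and 6. It was below 0.05 for Havcr2 without control 1 (0.0152) or swimming 3 (0.0476), and for Ctla4 without swimming 1 (0.0411) or swimming 3 (0.0238). The difference between Cd274 and Pdcd1lg2 was -0.10 to 0.029, at 0.000134 without control 6 and 0.029 without swimming 3. Of the pairs, 1 to 2 had an adjusted p below 0.05 (2 without control 4 or swimming 3), and of the relations with scores 3 to 6 (3 without control 2, 5 or 6), Pdcd1 and Ido1 with the T cell score and Lag3 with the interferon gamma score being those that were lost. The cause of these changes was not tested.

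Tumors that share a number are from different mice, and the numbers did not pair them. Deviations of same-numbered tumors had a mean correlation of -0.12 against 0.0246 for different numbers, and 0 of 6 pairs exceeded 0.1. With the replicate block, 451 of all genes were higher and 441 lower at an unadjusted p below 0.05. A fold change of 2 was also passed by 15. The unadjusted p was 0.00559 for Lag3, 0.00946 for Ido1 and 0.0355 for Cd274. The difference of Tigit relative to T cell markers was -0.53 with an exact sign-flip p of 0.125. The call of no checkpoint gene at an unadjusted p below 0.05 was altered by the block. For Tigit relative to T cell markers, the exact permutation p without the block was 0.0281. FPKM gives no counting error. Values of weak genes such as Ctla4 and Pdcd1lg2 may be least precise in control 2, the tumor of lowest estimated depth, though control 5 had the fewest genes above 0 (22293).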
